A study of Arabidopsis thaliana with 30 samples.

Results

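Open chromatin that was called in Arabidopsis shoots and in neither roots nor stems was followed through 12 mutants of DNA demethylation, DNA methylation and histone modification. The sites were chosen by presence in the peak lists themselves: a peak of Col-0 shoot replicate 1 that overlapped a peak of Col-0 shoot replicate 2 by at least 1 bp, and no peak of the 2 Col-0 root and 2 Col-0 stem lists. This rule kept 911 sites, or 4.74% of the 19208 Col-0 shoot peaks found in both replicates, from 20477 peaks in the first replicate and 734458 peaks in all 30 libraries of the series. They are called shoot-only sites below. The name says that no peak was called in root or stem, not that the chromatin there was closed, and the absence from root and stem is the choice itself, not a result.

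All libraries were made by ATAC-seq, in which the transposase Tn5 cuts accessible DNA, and each group had 2 libraries. The mutant shoots were from 2-week-old plants of ros1-4, rdd-2, drdd, met1-9, nrpd1-3, nrpd1-3 ros1-4, gcn5, gcn5 ros1-4, hda6, hda6 ros1-4, sdg2-4 and sdg2-4 ros1-4. The wild type was Col-0, with shoots and roots of 2-week-old plants and stems of 4-week-old plants. Stem libraries thus differ from the others in age as well as organ, and these cannot be told apart. The met1-9 libraries are labelled shoot, but their peak names say leaf. No label says whether the 2 libraries of a group came from separate plants, so the spread between them may be technical.

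ROS1 is a DNA glycosylase that removes 5-methylcytosine. The rdd-2 line also lacks its relatives DML2 and DML3, and drdd lacks DME as well. MET1 maintains CG methylation, and NRPD1 is the largest subunit of RNA polymerase IV, which feeds RNA-directed DNA methylation. GCN5 acetylates histone H3, HDA6 removes acetyl groups and takes part in silencing, and SDG2 is the main enzyme of H3K4 trimethylation. Green tissue, stomata and leaf blades are built by shoot-expressed regulators, and open sites near such genes are where transcription factors can reach the DNA.

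The libraries differed in how much was called. The 24 mutant shoot lists held 17925 to 38392 peaks, the Col-0 shoot lists 20477 and 21873, the root lists 25305 and 23841 and the stem lists 17315 and 20163. Read depth is not given in the lists. The median MACS2 fold of the weakest peaks, with a −log10 q under 2.5, stood between 1.28 in gcn5 replicate 2 and 2.41 in sdg2-4 replicate 2, so weaker peaks entered some lists than others. The fold is the authors' value for each peak, the pileup at the summit over the local background. It was not scaled between libraries and is used below only to describe sites. In bulk tissue, fewer cells of a type and less accessible DNA per cell cannot be told apart.

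Shoot-only sites were weak and narrow among Col-0 shoot sites. A rule of no overlap is met more easily by weak and narrow peaks, so this contrast is not independent of the choice. Their median fold in Col-0 shoot replicate 1 was 3.41, against 5.11 for the 18297 sites with a peak in root or stem, and their median width was 246 bp, against 345 bp. The quartiles of the shoot-only folds were 2.86 and 4.06, and the highest was 9.41. Of the 911 sites, 43% lay outside a protein-coding gene but within 1000 bp of one, against 58.1% of the shared sites. A further 32.9% lay inside a gene, against 27.9% of the shared sites, and 24% lay in neither place, against 13.8%. Gene-poor stretches, 100 kb windows with under 25% of their length in genes, held 2.2% of the shoot-only sites and 2.42% of the shared ones. Of the shoot-only sites, 52.6% lay within 1000 bp of a peak called in root or stem, and 33.9% within 1000 bp of a shoot peak that is shared with root or stem. These 2 shares were not set against those of other sites or positions.

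The strongest shoot-only sites were named by the lower of their 2 Col-0 folds. First came a site at AT2G29290 (chr2:12585098-12585846). It had folds between 3.56 and 13.9 in the 24 mutant libraries, with a median of 10.6, and of 9.41 and 8.98 in Col-0 shoots. Both met1-9 libraries, with 3.83 and 3.56, were the lowest mutant values at this site. Second was a site that overlaps STOMAGEN (EPFL9), whose secreted peptide from the leaf mesophyll promotes stomata (chr4:7585698-7586062). Its folds were 5.40 to 12.3 in the mutants, with a median of 9.74, and 8.51 and 9.76 in Col-0. The mutant and Col-0 values overlapped.

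Next came a site near ATSPS4F, a sucrose phosphate synthase gene (chr4:6313181-6313584), with folds of 6.78 to 13.4 in the mutants and 8.82 and 8.43 in Col-0. The others among the first 10 lay at PRA1.G2, AT5G04390, PEX5 (the import receptor of peroxisomes), AT1G65481, AT5G42530, MES11 and AT2G10940. Of these 10 sites, 9 had a peak in each of the 24 mutant libraries. The exception was the site near AT1G65481 (chr1:24339083-24339496), which had no peak in either drdd library. Its folds were 2.92 and 4.38 in ros1-4 and 7.33 and 6.2 in rdd-2, against 7.5 and 6.75 in Col-0. Every other mutant library had a fold of 6.12 or more there. The site at PRA1.G2 (chr5:22758021-22758738) had folds of 4.74 and 3.91 in hda6 and 5.28 and 4.69 in sdg2-4, against 8.36 and 9.34 in Col-0. The hda6 ros1-4 libraries had 9.78 and 9.07 there, those of sdg2-4 ros1-4 9.72 and 8.90. This order was not particular to PRA1.G2. Among the 10 sites, both libraries of each of these doubles lay above both of its single mutant except at PEX5 and AT1G65481. Over all peaks, sdg2-4 libraries had median folds of 5.18 and 5.01, against 5.95 and 5.94 for the double. The hda6 medians, 5.56 and 4.92, overlapped those of its double, 5.83 and 5.54. The part of such library differences was not tested.

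Genes of 15 lists were then looked up for shoot-only sites within 1000 bp. Of all protein-coding genes with a Col-0 shoot site of either kind within that distance, 899 of 17667, or 5.09%, had a shoot-only one. Among lists tied to green tissue and leaf form the shares were 6 of 37 genes for light harvesting and photosystems, 3 of 18 for chloroplast development, 6 of 31 for leaf growth and polarity, 5 of 22 for stomata and trichomes and 5 of 22 for cuticle and epidermis. Flavonoid and anthocyanin genes had 3 of 12 and immunity genes 4 of 33. The counts were 2 of 28 for glucosinolate and jasmonate genes and 1 gene each for light signalling (of 34), flowering and phase change (of 26), starch, sugar and photorespiration (of 25) and DNA methylation (of 19). Lists of the circadian clock (19 genes with a site), root development and uptake (13) and secondary wall and vasculature (13) had 0. These counts are small and are given as descriptions. With lists of equal length they were 3 for cuticle and epidermis, 1 for flavonoid and anthocyanin, 2 for immunity and 0 for glucosinolate and jasmonate and for flowering, and with −log10 q of at least 5 there was 1 for chloroplast development.

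In the light-harvesting list the shoot-only sites lay at LHCB2.1, LHCB1.2 and LHCB5, which encode antenna proteins that bind chlorophyll, at PSAE-1 of photosystem I, and at RBCS1B and RCA, which encode the Rubisco small subunit and Rubisco activase. The LHCB2.1 site (chr2:1822141-1822414) had a peak in 23 of 24 mutant libraries and folds of 5.90 and 5.08 in Col-0. The RBCS1B site (chr5:15385249-15385461) was present in all 24, with folds of 3.83 to 9.00 against 3.5 and 4.56 in Col-0. LHCB1.2 and RBCS1B belong to families of near-identical tandem copies, and how reads with several matches were placed is not given in the sources used here. The LHCB5 site (chr4:6410267-6410443) was the least stable of the list. It was absent from both libraries of ros1-4, rdd-2, nrpd1-3, sdg2-4 and sdg2-4 ros1-4, and present in 12 mutant libraries in all.

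In chloroplast development, GLK1, a transcription factor that activates photosynthesis genes, had a site (chr2:8857917-8858368) in all 24 mutant libraries, with folds of 4.93 to 8.70, a median of 6.69, and 6.31 and 6.22 in Col-0. GNC, a GATA factor of chlorophyll genes, had a site (chr5:22991499-22991667) in 23 libraries, with folds of 2.73 to 7.59 in the mutants and 2.23 and 3.03 in Col-0. A second shoot-only site lay farther from GNC, beyond 1000 bp (chr5:22993071-22993249). It was in 15 libraries and absent from both libraries of rdd-2, nrpd1-3 and nrpd1-3 ros1-4. CHLH, a subunit of magnesium chelatase in chlorophyll synthesis, had a site in 20 libraries that was absent from both drdd libraries. In light signalling the red-light receptor gene PHYE had a site (chr4:10045995-10046439) in all 24 libraries, with folds of 3.65 to 6.91 in the mutants and 5.80 and 5.57 in Col-0.

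Among genes of leaf growth, GIF1, also called AN3, is a coactivator of cell proliferation in leaf primordia. Its site (chr5:10648623-10649005) had folds of 5.51 to 10.9 in the 24 mutant libraries, with a median of 7.35, against 4.34 and 5.80 in Col-0. TCP10, which restrains proliferation, had a site (chr2:13220168-13220438) with folds of 2.59 to 8.74 in the mutants and 4.34 and 4.33 in Col-0. The 4 highest of those mutant values were in met1-9 replicate 2, both gcn5 libraries and gcn5 ros1-4 replicate 2. WOX1, a homeobox gene of blade outgrowth, had 2 shoot-only sites and both were in all 24 libraries. YAB5, a gene of the lower leaf side, kept its site in 21 libraries. AS2, a gene of the upper leaf side, and NGA1, a gene of leaf margin growth, kept theirs in 15 and 16.

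The stomata and trichome list held the STOMAGEN site and sites at SCRM2, ERL2, ZFP8 and SPCH. SCRM2, a partner of SPCH, had its site (chr1:4383759-4384105) in all 24 mutant libraries, with folds of 3.35 to 7.78 against 4.74 and 5.07 in Col-0. SPCH, whose protein starts the stomatal lineage, had a site (chr5:21589456-21589671) in 10 mutant libraries, with Col-0 folds of 3.19 and 3.18. That site was absent from both libraries of nrpd1-3 ros1-4, gcn5 ros1-4, hda6, sdg2-4 and sdg2-4 ros1-4. ERL2 is a receptor kinase of stomatal patterning, and its site was present in 22 libraries. In the cuticle list the sites at KCS10 and CER2, both of very-long-chain fatty acid and wax synthesis, and at the epidermal homeobox gene HDG2 were present in 23, 22 and 22 mutant libraries. The site at CYP86A8, a cutin hydroxylase gene, was present in 19. The site at ATML1, a homeobox gene of epidermal identity, was in 17 and was absent from both rdd-2 libraries.

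TT8, a bHLH regulator of flavonoid and anthocyanin genes, had one of the stronger listed sites (chr4:6181556-6181984). Its folds were 3.48 to 7.62 in the mutants, with a median of 4.78, against 6.45 and 6.54 in Col-0, and it was present in all 24 libraries. Sites at the repressor gene MYBL2 and the flavonoid hydroxylase gene TT7 were present in 18 and 15. Of the immunity genes, the transcription factor gene WRKY70 had its site (chr3:20908191-20908536) in all 24 libraries. PR1, an antimicrobial protein gene induced by salicylic acid, had a site (chr2:6243029-6243248) in 16. The PR1 site was absent from both libraries of ros1-4, nrpd1-3 and nrpd1-3 ros1-4, and its folds were 8.81 and 7.12 in met1-9 against 3.42 and 2.95 in Col-0. WRKY33 and RPP13 had sites in 15 and 13 libraries. In the remaining lists the sites lay at SPL5, AOP3, MYB51, HPR (of photorespiration) and DML2, the demethylase relative of ROS1. SPL5 and HPR kept theirs in all 24 libraries, AOP3 in 23, DML2 in 20 and MYB51 in 12.

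In all, 39 sites lay at 38 listed genes. Of these 39, 16 (41%) had a peak in every mutant library and 13 were absent from both libraries of at least 1 mutant. At 7 of them, those of TT7, SPL5, AOP3, RPP13, PSAE-1, RCA and SCRM2, another protein-coding gene was as near or nearer.

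**Figure D1:**
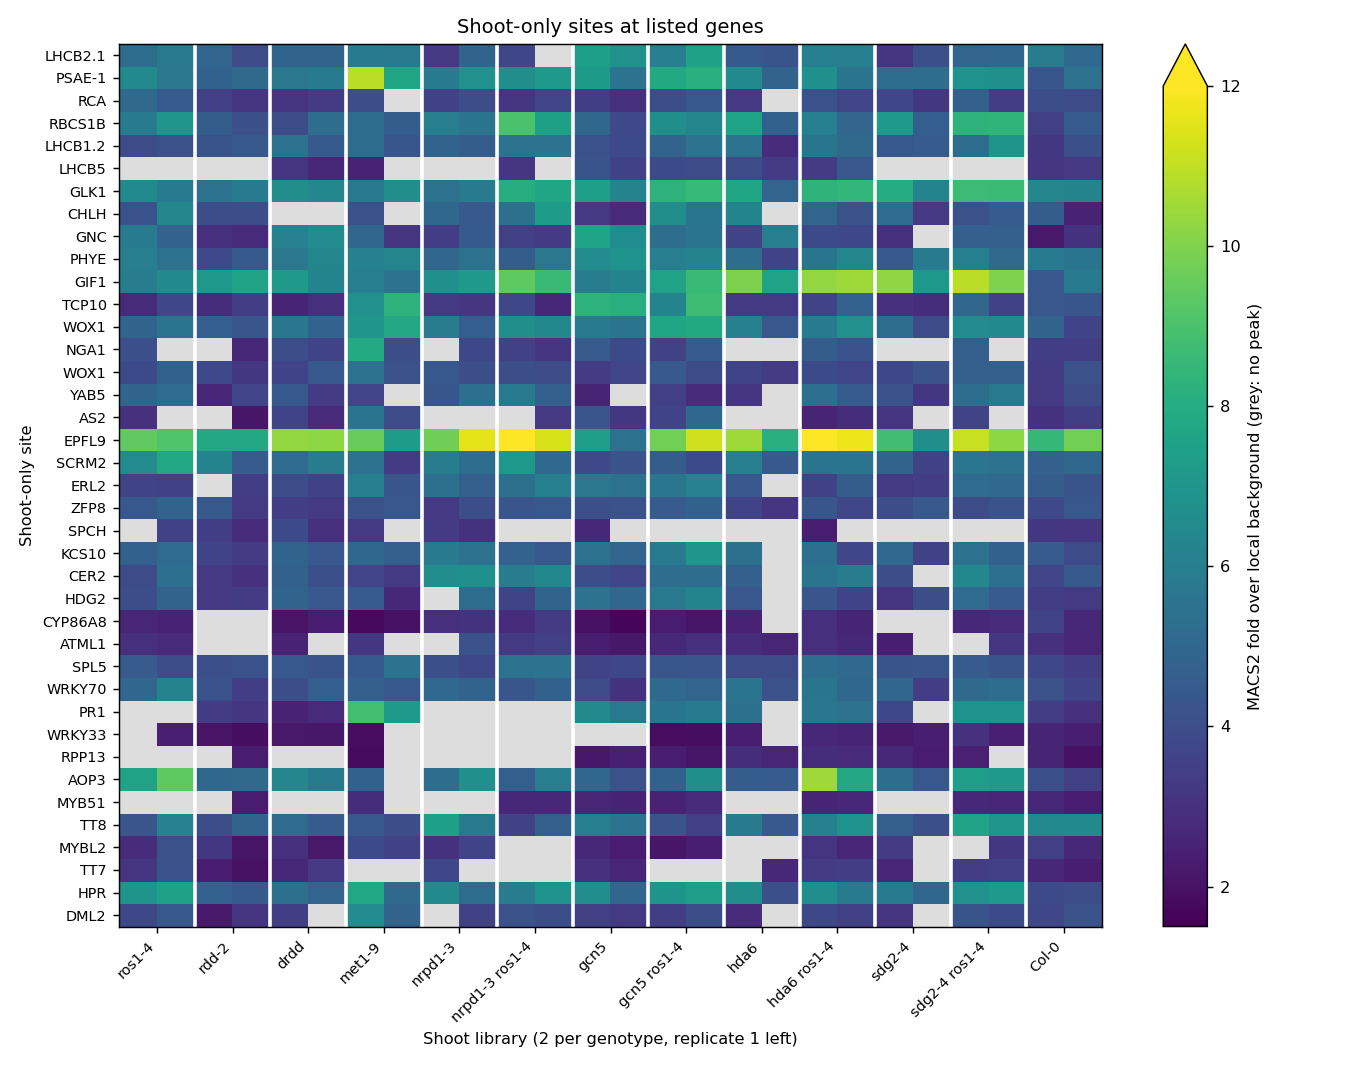
MACS2 fold of the 39 shoot-only sites at listed genes (rows, grouped by list) in each of the 24 mutant shoot libraries and the 2 Col-0 shoot libraries (columns, 2 per genotype). Grey cells have no peak; STOMAGEN (drawn as EPFL9), GLK1, PHYE and GIF1 have a peak in every column, while LHCB5, SPCH and MYB51 have one in 12, 10 and 12 mutant libraries.

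Across all 911 sites, a mutant library held between 55% of them (hda6 replicate 2) and 97.0% (gcn5 replicate 1). For sites shared with root or stem the same range was 86.6% to 99.7%, and in each of the 24 libraries the shoot-only share was lower. The highest shoot-only shares were in both gcn5 libraries (97.0% and 94.7%), both gcn5 ros1-4 libraries (92.3% and 94.8%) and met1-9 replicate 1 (93.6%). The lowest were in hda6 replicate 2 and sdg2-4 replicate 2 (61.1%). The first replicates of hda6 and sdg2-4 held 78.9% and 80.6%, so the 2 libraries of each of these genotypes lay far apart. The shares did not follow list length in every library. The shortest mutant list, of hda6 replicate 2 with 17925 peaks, had the lowest share, but met1-9 replicate 2, with 26663 peaks, held 78.9%, while rdd-2 replicate 2, with 23532, held 87.0%. The longest list, of met1-9 replicate 1 with 38392 peaks, lay below both gcn5 lists. The part of list length in these shares was not tested.

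**Figure D2:**
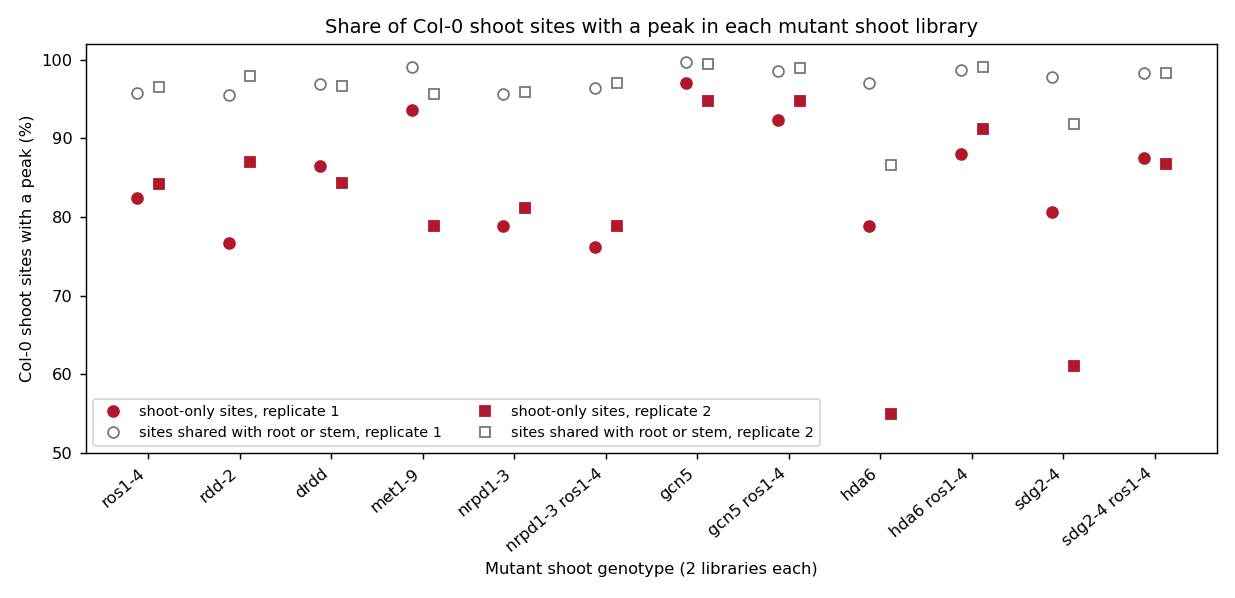
Share of Col-0 shoot sites with a peak in each mutant shoot library (percent, y axis from 50%), by genotype, for shoot-only sites (filled) and sites shared with root or stem (open). Shoot-only shares lie between 55% and 97.0%, below the shared sites in each library.

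Of the shoot-only sites, 272 (29.9%) had a peak in all 24 mutant libraries, against 75.5% of the shared sites. A total of 546 (59.9%) were absent from both libraries of no mutant, against 91.9% of the shared sites, and 365 (40.1%) were absent from both libraries of at least 1, against 8.1%. No site was absent from all 12 mutants, and 58 were absent from at least 6, where the share over all Col-0 shoot sites was 0.786%. The 272 sites kept throughout had a median lower Col-0 fold of 3.86 and a median width of 294 bp. The 568 sites in 12 to 23 libraries had 3.03 and 227 bp, and the 71 sites in fewer than 12 had 2.64 and 216 bp.

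Counted by mutant, 97 shoot-only sites (10.6%) were absent from both ros1-4 libraries, where the share over all 19208 Col-0 shoot sites was 2.71%. In rdd-2 there were 101 (11.1%, against 2.05% of all sites) and in drdd 84 (9.22%, against 2.59%). In met1-9 there were 56 (6.15%, against 1.08%). In nrpd1-3 there were 114 (12.5%, against 2.52%) and in nrpd1-3 ros1-4 149 (16.4%, against 2.57%). The gcn5 shoots had the fewest, 18 (1.98%, against 0.318%), and gcn5 ros1-4 had 43 (4.72%, against 1.1%). The hda6 shoots had the most, 171 (18.8%, against 3.02%), and hda6 ros1-4 had 65 (7.14%, against 0.979%). In sdg2-4 there were 158 (17.3%, against 2.45%) and in sdg2-4 ros1-4 86 (9.44%, against 1.63%). In each of the 12 mutants the shoot-only share was above the share over all sites. With 2 libraries of a mutant against 2 of Col-0, an exact test of a single site cannot go below p = 0.333, so no mutant was tested on its own.

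The order of the mutants was another one with lists of equal length. When every list was cut to its 17315 strongest peaks, the rule was applied again to the cut lists. The shoot-only sites and the sites beside them were thus not the same as before, and shares under the 2 settings belong to different sets. The shares absent ran from 14% in drdd to 32.9% in sdg2-4 ros1-4, and each was again above the share over all sites. In met1-9 the share was then 31.4%, against 6.15% with the lists as deposited, and in gcn5 17.8%, against 1.98%. Such a limit also changes which peaks are kept, so it does not single out length. The hda6 pair turned round, to 28.7% in hda6 ros1-4 and 24.6% in hda6, and so did the sdg2-4 pair, to 32.9% and 26.6%. The lists of hda6 and sdg2-4 also carry library numbers from another range than those of their ros1-4 doubles. No label says what these numbers stand for, and whatever goes with them cannot be told apart from genotype there.

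**Figure D3:**
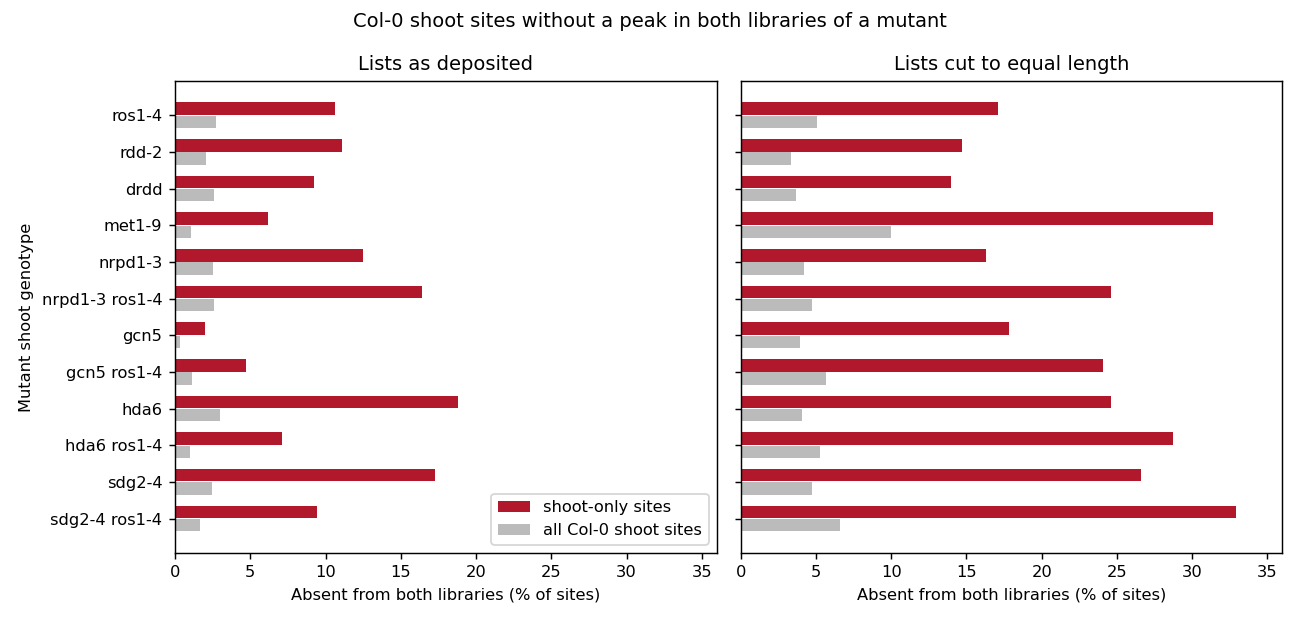
Share of sites without a peak in both libraries of each mutant (percent), for shoot-only sites and for all Col-0 shoot sites, with the lists as deposited (left) and cut to 17315 peaks each (right). On the right the sites were chosen anew from the cut lists, so the sides show different sets of sites. The shoot-only bar is the longer one in each of the 12 mutants on both sides. The hda6 and sdg2-4 bars lie above their doubles on the left and below them on the right.

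Because shoot-only sites were weak, presence was also compared among sites of like Col-0 fold, a comparison added after the values were seen. For sites whose lower Col-0 fold was under 2.5, a mutant library held on average 67.2% of the shoot-only and 83.4% of the shared sites. The averages were 78.1% and 89.1% at folds of 2.5 to 3, 83.8% and 92.9% at 3 to 3.5, and 90.0% and 95.7% at 3.5 to 4. In each of these 4 classes the shoot-only share was lower in 24 of 24 libraries. At folds of 4 to 5 the averages were 94.1% and 97.8%, lower in 22 of 24 libraries. At 5 and over, with 60 shoot-only sites, they were 99.0% and 99.5%, lower in 8 of 24. Sites of like fold in shoots still differed in root and stem by the choice itself. Presence also went with the number of root and stem lists that held the site, and so did the fold: mutant libraries held on average 83.2% of shoot-only sites, 87.7% of sites in 1 of the 4 lists, 91.5% in 2, 94.0% in 3 and 98.5% in all 4. The median lower Col-0 folds of the same classes were 3.16, 3.46, 3.59, 3.95 and 5.38.

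**Figure D4:**
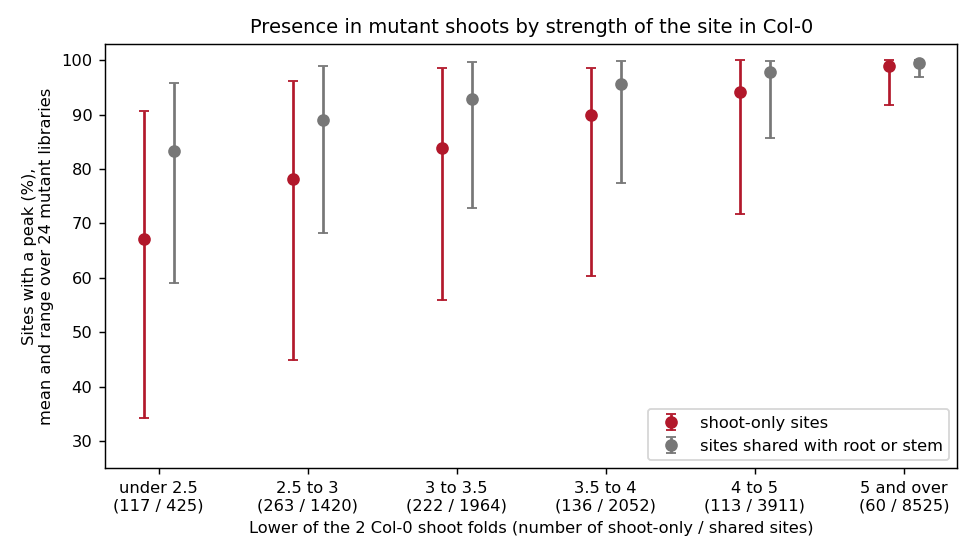
Mean share of sites with a peak over the 24 mutant shoot libraries (percent, points; lines give the lowest and highest library) by the lower of the 2 Col-0 shoot folds, for shoot-only and shared sites. The shoot-only point lies at 67.2% and the shared one at 83.4% in the weakest class, and at 99.0% and 99.5% in the strongest.

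The sites absent from related mutants overlapped in part. Of those absent in ros1-4, rdd-2 and drdd, 32 were absent from all 6 libraries, which is 33%, 31.7% and 38.1% of each mutant's count. Over all Col-0 shoot sites 147 (0.765%) were absent from these 6 libraries, out of 521, 394 and 497 absent in each mutant. Here and below, percentages over all sites are of the 19208 sites, not of a mutant's count. The nrpd1-3 pair shared 59 (51.8% of the nrpd1-3 and 39.6% of the nrpd1-3 ros1-4 count). Over all sites it shared 173 (0.901%), out of 484 and 493. The gcn5 pair shared 4 (22.2% and 9.3% of each count). Over all sites it shared 35 (0.182%), out of 61 and 212, a larger part of each count than among shoot-only sites. The hda6 pair shared 50 (29.2% of the hda6 and 76.9% of the hda6 ros1-4 count), and the sdg2-4 pair 69 (43.7% and 80.2%). Over all sites the hda6 pair shared 100 (0.521%), out of 581 and 188, and the sdg2-4 pair 138 (0.718%), out of 470 and 313. The hda6 and sdg2-4 lists shared 117 absent shoot-only sites, or 68.4% and 74.1% of each count. Over all sites they shared 288 (1.5%), out of 581 and 470. Both genotypes contain the libraries with the fewest shoot-only sites.

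The fewest mutant libraries, 3, held a site near AT1G62510 (chr1:23135135-23135348). It had a peak in both drdd libraries (folds 2.54 and 2.56) and in gcn5 replicate 1 (1.72), against 2.73 and 2.42 in Col-0, and was absent from both libraries of 10 mutants. A stronger site near AT2G27240 (chr2:11663406-11663629) was also absent from 10 mutants. It had a peak in both met1-9 libraries (folds 6.14 and 5.30) and both nrpd1-3 libraries (4.41 and 4.56) and in no other mutant library, against 4.08 and 4.22 in Col-0. A site at AT1G51890 (chr1:19278671-19279110) had a peak in both libraries of met1-9 (6.75 and 6.97), gcn5 (4.90 and 5.49) and gcn5 ros1-4 (3.31 and 3.44) and in no other mutant, against 3.16 and 2.53 in Col-0.

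Presence at each site was tested across the mutants with Fisher's exact test (two-sided), with Benjamini-Hochberg adjustment over all 19208 Col-0 shoot sites. The 14 libraries without ROS1 were set against the 10 mutant libraries with ROS1, and the 4 libraries without GCN5, HDA6, SDG2 or NRPD1 against the other 20. Col-0 was left out because it chose the sites. The test counted the 24 libraries as separate units, although they are 2 of each of 12 genotypes. Its p values may therefore be too small, also for the 1 call below.

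Loss of ROS1 gave 1 call among the shoot-only sites, of 7 lower (0.0364% of all sites) and 0 higher (0.0%). The called site lay near EXPA17, an expansin gene whose protein loosens cell walls (chr4:699456-699775). It had no peak in 14 of 14 libraries without ROS1 and a peak in 9 of 10 libraries with ROS1 (adjusted p = 0.021, Fisher's exact test). Its folds were 3.83 and 3.77 in met1-9, 5.91 and 5.87 in nrpd1-3, 7.57 and 7.72 in gcn5, 3.24 and 3.65 in hda6 and 3.09 in sdg2-4 replicate 1, against 5.13 and 3.48 in Col-0. The adjusted p was 0.0504 when any one of met1-9 replicate 1 or 2, gcn5 replicate 1 or 2, or hda6 replicate 1 was left out. It was 1 when the 4 double mutants were set against their 4 single mutants alone. The peak was then in 0 libraries of the double and 7 of the single mutants. With so few libraries no single site could be called, so that value says little. Over the leave-one-out fits the adjusted p ran from 0.0047 to 0.0504. The site lay 226 bp from the nearest root or stem peak.

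Next by p came a site at GSTU4, a glutathione transferase gene, in 0 of 14 libraries without ROS1 and 7 of 10 with ROS1 (adjusted p = 0.2, Fisher's exact test). A site with no gene within 2000 bp (chr2:6236711-6236937) was present in 4 of 14 and 10 of 10 (adjusted p = 0.2, exact test). Its folds were 11.8 and 8.85 in met1-9, against 4.61 and 4.43 in Col-0, and it was absent from both libraries of ros1-4, rdd-2, drdd, nrpd1-3 ros1-4 and gcn5 ros1-4. A site on chromosome 4, also without a near gene (chr4:637042-637355), was present in 6 of 14 libraries without ROS1 and 10 of 10 with ROS1 (adjusted p = 1, exact test). With lists of equal length it was in 0 of 14 and 10 of 10 (adjusted p = 0.00403, exact test) and was then the single call among shoot-only sites, while the EXPA17 site was not among the shoot-only sites of those lists. Other sites went the other way. A site with no gene within 2000 bp (chr5:21736434-21736639) was in 14 of 14 libraries without ROS1 and 4 of 10 with ROS1 (unadjusted p = 0.00156, adjusted p = 0.499, Fisher's exact test). A site at GA3 was in 13 of 14 and 3 of 10 (unadjusted p = 0.00235, adjusted p = 0.617, exact test). At an unadjusted p under 0.05, 17 shoot-only sites were lower without ROS1 (1.87%, against 0.901% of all sites) and 19 higher (2.09%, against 0.458%). A site present in all 24 mutant libraries cannot reach such a p. Fewer of the shoot-only than of the shared sites were in all 24, so these shares do not measure dependence on ROS1.

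**Figure D5:**
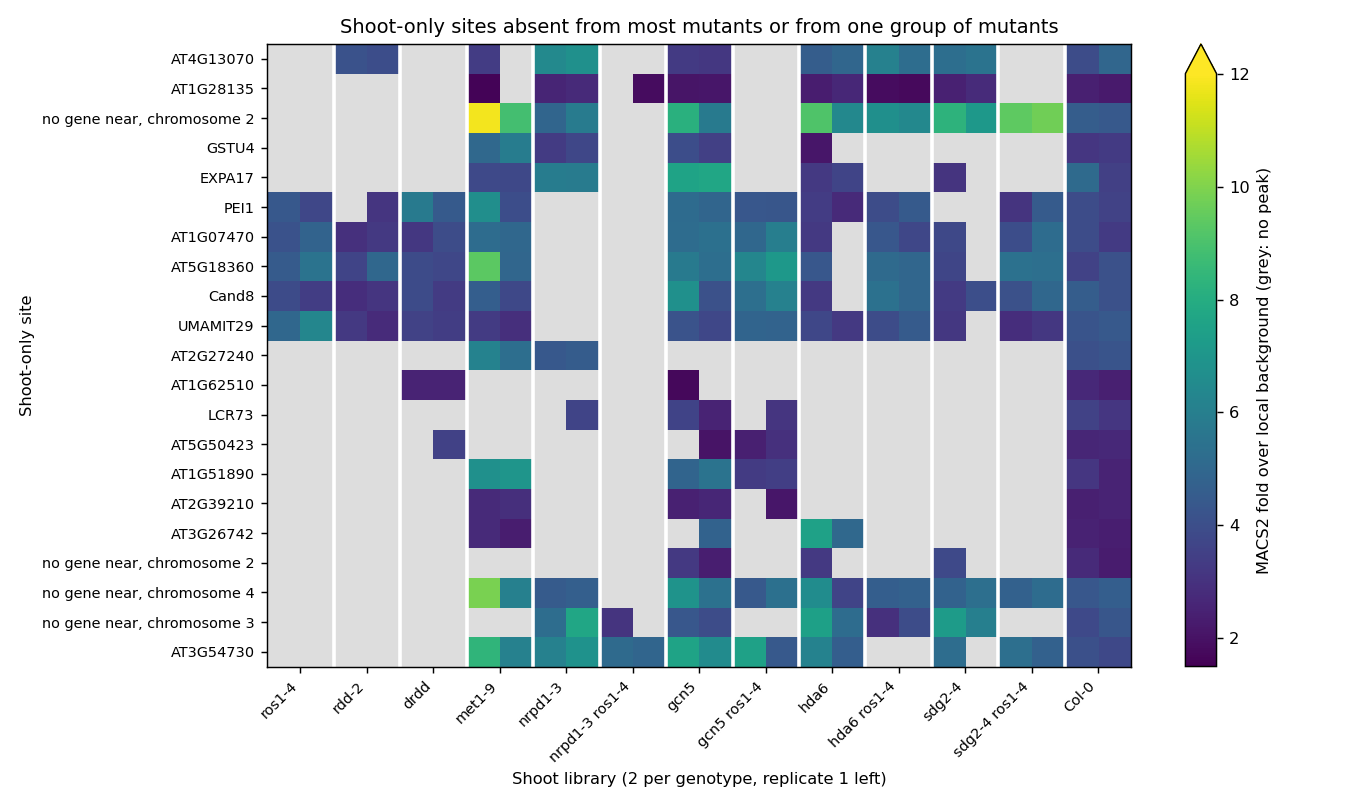
MACS2 fold in each mutant shoot library and Col-0 (columns, 2 per genotype) of shoot-only sites (rows). At the top are the 5 with the lowest p among sites lower without ROS1, then the 5 among sites lower without NRPD1. Sites higher without these factors were not drawn for their p. The other rows are sites absent from most mutants or from ros1-4, rdd-2 and drdd. Grey cells have no peak; the EXPA17 row is grey in the 14 libraries without ROS1, and the UMAMIT29 and Cand8 rows are grey in the 4 libraries without NRPD1.

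No site was called for the other factors in either direction (0.0% of all sites, Fisher's exact test). With 4 libraries against 20 the smallest possible p is 9.41e-05, and at least 37 of the 19208 sites would have to reach it for any call. Single sites could therefore not be called, and the counts of 0 say little about these factors. At an unadjusted p under 0.05, 33 shoot-only sites were lower without NRPD1 (3.62%, against 1.02% of all sites) and 2 higher (against 0.0208%). Without GCN5, 4 were lower (against 0.172%) and 38 higher (4.17%, against 0.437%). Without HDA6, 13 were lower (1.43%, against 0.328%) and 4 higher (against 0.0677%), and without SDG2, 19 were lower (2.09%, against 0.344%) and 0 higher (against 0.00521%). Sites present in all 24 libraries, 29.9% of the shoot-only and 75.5% of the shared ones, cannot reach such a p. The higher shares among shoot-only sites therefore do not measure dependence on a factor. Stratified by replicate number, the exact test again called 0 shoot-only sites for these 4 factors.

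The lowest p values for NRPD1 belonged to sites near UMAMIT29, an amino acid transporter gene (chr4:584476-584766), and near Cand8 (chr5:9575767-9576028). Each was present in 0 of 4 libraries without NRPD1 and 19 of 20 with NRPD1 (unadjusted p = 0.000471, adjusted p = 1, Fisher's exact test). The UMAMIT29 site had Col-0 folds of 4.21 and 4.43, and 2.79 to 6.32 in the mutants that kept it. At AT5G18360, 2 neighbouring shoot-only sites were absent from all 4 libraries without NRPD1 and were in 17 and 18 of the other 20. The PR1 site was in 0 of 4 and 16 of 20 (unadjusted p = 0.00659, adjusted p = 1, exact test).

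The rule has a limit of 1 bp. Just inside it, 3 shoot-only sites overlapped their peak of replicate 2 by under 20 bp, the closest by 9 bp, and 6 lay under 20 bp from a root or stem peak, the closest at 2 bp. Just outside it, 12 sites were left out for an overlap of under 20 bp with root or stem, the smallest 2 bp. A further 656 sites had a peak in exactly 1 of the 4 root and stem lists.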

How the data were processed

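ATAC-seq peak lists of 30 libraries, 2 in each of 15 groups, were used. Per the submitters' processing notes, FastQC, BWA, SAMtools, GATK, MACS2 and TAIR10 were used, and their versions are not given in the sources used here. The deposited score is an integer peak score made by the authors with MACS2. The deposited fold is a ratio of pileup over local background, and −log10 p and −log10 q were deposited by the authors as MACS2 wrote them. Start, end and summit are deposited coordinates. A peak's fold grows more precise with depth, which the lists do not give, so a missing peak is not a measured absence.

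A site was present in a library when any peak overlapped it by at least 1 bp, and absent from a mutant when neither of its 2 libraries held such a peak. A site took the name of the closest protein-coding gene, up to 2000 bp away, in the RefSeq gene table of TAIR10.1. Only its names and gene neighbourhoods were used; 68.1% of summits of Col-0 shoot replicate 1 lay outside genes without a shift, against 56.4% or less after shifts of 200 bp or more. Of 476 listed symbols, 467 matched, at 463 genes, and 810 of the 911 sites had a gene within 2000 bp.

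The members, gene lists and rules were chosen with earlier results of these data known. Named were the 10 sites with the highest lower Col-0 fold, 8 present throughout, 8 absent from most mutants, 5 absent from ros1-4, rdd-2 and drdd, called sites, listed genes and sites at the overlap limit; sites named beside these were picked after their values were seen. Tests used Fisher's exact test in scipy 1.17.1. They were also run on simulated data with 200 sites changed together, which does not show that a single site could be called. Groups came from titles, and library numbers from peak names, which hold the words merge and addData for stem. Same-numbered libraries did not deviate together (correlations of −0.151 to 0.192 among 91 group pairs), so the numbers were not used as pairs. Alternatives were another overlap, a stricter q, equal lists, the other replicate, regions left out and single libraries left out. No genome sequence was used here, so no sequence is printed.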

Additional observations from a re-analysis of the deposited data

How the results depend on the processing

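The number of shoot-only sites was 994 to 1537 when single libraries were left out of the rule, and 1915 without the stem lists, an alternative chosen after seeing the data. Taking a root or stem list, or the overlap with shoot replicate 2, out of the rule cannot lower this count or that of listed genes. Without the stem lists 16 in place of 6 light-harvesting genes had such a site. The 50% overlap, the stricter q and the equal lists each chose the sites anew, so their shares do not belong to the same sites. With a peak required to cover 50% of the site, the share absent was 13.2% in ros1-4, 11.3% in met1-9, 20.1% in sdg2-4 and 13.1% in sdg2-4 ros1-4. With −log10 q of at least 5 it was 6.97% in drdd, 3.95% in met1-9, 13.8% in nrpd1-3 ros1-4, 2.44% in gcn5 ros1-4, 4.41% in hda6 ros1-4, 14.5% in sdg2-4 and 6.27% in sdg2-4 ros1-4. With lists of equal length it was 17.1% in ros1-4, 14.7% in rdd-2, 14% in drdd, 31.4% in met1-9, 16.3% in nrpd1-3, 24.6% in nrpd1-3 ros1-4, 17.8% in gcn5, 24.1% in gcn5 ros1-4, 24.6% in hda6, 28.7% in hda6 ros1-4, 26.6% in sdg2-4 and 32.9% in sdg2-4 ros1-4. The cause was not tested. An absence counted in 1 library can only be as frequent as in both or more so. Counted in 1 library in place of both, the share ran for ros1-4 between 15.8% and 17.6%, for rdd-2 between 13% and 23.3%, for drdd between 13.5% and 15.7%, for met1-9 between 6.37% and 21.1%, for nrpd1-3 between 18.8% and 21.1%, for nrpd1-3 ros1-4 between 21.1% and 23.8%, for gcn5 between 2.96% and 5.27%, for gcn5 ros1-4 between 5.16% and 7.68%, for hda6 between 21.1% and 45%, for hda6 ros1-4 between 8.78% and 12%, for sdg2-4 between 19.4% and 38.9% and for sdg2-4 ros1-4 between 12.5% and 13.2%. The other settings tried and a gap of at least 300 bp to root and stem peaks, added later, kept each share within the 95% exact binomial interval of its main value. That interval treats sites as independent and leaves out the spread between libraries. It does not measure how far a mutant's share could vary. The count of 272 sites in all mutant libraries was 300 without met1-9 and 380 without the 2 shortest lists, and leaving libraries out cannot lower it. For ROS1 the calls were 1 under the replicate block, 0 for double against single mutants and 0 to 1 with single libraries left out. The double against single setting had too few libraries for a single site to be called. For GCN5, HDA6, SDG2 and NRPD1 they were 0 under each alternative run, and with 4 libraries against 20 no single site could be called. A missing peak cannot be told from a weak one at unknown depth.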
